A study of Mus musculus with 46 samples.

Results

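The immediate early genes described here are Fos, Fosb, Jun, Junb, Egr1, Egr2, Ier2, Dusp1, Zfp36 and Klf6, 10 of the 21812 genes in the count tables, chosen by their gene symbols. Their RNA was followed in mouse EPSC, pluripotent stem cells cultured to keep an extended developmental potential, and in cells made from them in medium that induces primitive endoderm (PrE). The title of the series concerns N6-methyladenosine (m6A), an internal mark of mRNA, and message stability in PrE. The 46 libraries fell into 19 groups in 7 tables of read counts.

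Untreated EPSC had 2 libraries in a table of their own. EPSC (called EPS) and PrE-induced cells (called PrEdiff) received actinomycin D, a blocker of transcription, for 0, 1, 2 or 3 h, with 2 libraries for each state and hour. PrE-induced cells were also sampled as Virma wild type (WT) and Virma cKO, as Mettl3 WT and Mettl3 cKO, and after siNC and siIgf2bp3, with 2 libraries each. The sources used here do not give the Cre or other means behind the cKO labels. PrE-induced cultures were separated into CD140+ cells (PrE-E) and CD140- cells (EPI-E), with 2 libraries each. The last table held the VE and EPI parts, 6 libraries each, of embryoids grown for 5 days from EPSC and GBL-1 and taken apart with 0.5% pronase E. GBL-1 is named by the labels without further detail. Whether a line is 1 clone was not given either. The labels do not state whether the libraries of a group came from separate cultures, and the p-values cover only the spread between the libraries at hand. Within the actinomycin D table that spread was close to sampling noise, with a chi-square per degree of freedom of 1.19 to 1.30 over the 8 pairs. It was wider in the other tables, at 1.58 for untreated EPSC, 1.99 and 9.23 for siIgf2bp3 and siNC, and 3.07 to 3.12 for Mettl3. For Virma it was 6.07 to 6.72, for the CD140 fractions 7.47 to 9.90, and for the embryoids 6.17 to 20.0.

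Immediate early genes are switched on within minutes of a signal, without new protein synthesis, when kinases such as ERK act on transcription factors already bound at their promoters. Their mRNAs are short-lived, and many carry AU-rich elements, runs built around ATTTA in the 3′ UTR that recruit decay factors. Fos, Fosb, Jun and Junb encode subunits of the dimeric transcription factor AP-1. Egr1 and Egr2 encode zinc finger transcription factors, and Klf6 a Krüppel-like factor. Ier2 encodes a nuclear protein. Dusp1 encodes a phosphatase that switches off MAP kinases, and Zfp36 encodes tristetraprolin, which binds AU-rich elements and hastens the decay of the message. ERK signalling is also the route by which FGF drives cells of the inner cell mass toward PrE.

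Total counts ran from 6854433 to 22280769 per library. Levels are CPM (each library's counts as a share of its total, scaled with TMM factors within a table), changes are log2 values ± SE, and n is 2 libraries per group unless stated. A gene is said to rise or fall only where edgeR's quasi-likelihood test gave a Benjamini-Hochberg adjusted p under 0.05 over all genes tested. The labelled states matched their PrE markers: all 8 were higher in PrEdiff than in EPS at 0 h, in PrE-E than in EPI-E, and in embryoid VE than in embryoid EPI. Pdgfra among them encodes CD140a, and CD140 was used to separate PrE-E from EPI-E. Its rise in PrE-E therefore followed from the sort and is no support for the labels. Of the pluripotent epiblast markers, Zfp42 was higher in PrE-E than in EPI-E (0.34 ± 0.11, adjusted p = 0.0167), while the others listed were lower. The EPS libraries at 3 h stood apart from the other hours. Of 82 ribosomal protein genes, 81 rose from 0 to 1 h and 78 from 1 to 2 h, whereas 80 fell from 2 to 3 h.

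The AU-rich sites of the 3′ UTRs are printed first because the decay of these messages is the main measurement. All 10 members had a 3′ UTR in the GENCODE vM21 transcripts, and a window of 30 bases around an ATTTA is shown for the 8 with a printed site, with each ATTTA in capitals, 5′ to 3′ on the sense strand.
Fos: tattgtgttttcaATTTATTTAttaagatg
Fosb: cccacccccagctATTTAtccctttcctgg
Jun: aaaagatgacctttgcttgtgcatATTTAt
Junb: aatatatttgtgtATTTAacagggagggga
Egr2: tcagtgtatatccATTTAgattttgtgtat
Dusp1: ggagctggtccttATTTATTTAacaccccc
Zfp36: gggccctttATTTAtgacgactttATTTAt
Klf6: ttttctcacgcagctacgtctcttATTTAt

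The stricter run TATTTAT occurred 3 times in Dusp1 and in Zfp36, 2 times in Fos and in Klf6, 1 time in Fosb and in Jun, and not in Junb, Egr1, Egr2 or Ier2. Among genes whose 3′ UTR length lay within 25% of the member's, 1.26% held as many copies as Zfp36 and a near-equal share as many as Dusp1. For Fos the share was 4.30%, and for Klf6, with a 3′ UTR of 3111 bases, 22.1%. Ier2 was the member without any ATTTA, a run that 64.35% of genes of similar 3′ UTR length hold. GGACT, a core of the m6A consensus, occurred 5 times in Klf6, 4 times in Ier2, 2 times each in Fos and Jun, and 1 time in each of the other 6 members. Of genes of similar 3′ UTR length, 1.16% held as many copies as Ier2 and 14.7% as many as Klf6. These are counts of letters on the sense strand, not measured sites, and TATTTAT copies are also counted under ATTTA.

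Promoters are shown for the members whose 250 bases before the transcription start held a searched motif. The RefSeq promoter table (GRCm38.p6) had 8 of the 10 members; Egr1 and Ier2 were not among them. Both strands were searched for the CArG box bound by SRF, for TGACGTCA bound by CREB, for TGACTCA bound by AP-1, for GCGTGGGCG bound by EGR proteins, for CCGGAAGT bound by ETS factors, and for TATAAA. Motif letters are in capitals, and each window is written on the strand of its gene.
Egr2, chr10:67537619-67537868, plus strand, CArG box from -72 to -63: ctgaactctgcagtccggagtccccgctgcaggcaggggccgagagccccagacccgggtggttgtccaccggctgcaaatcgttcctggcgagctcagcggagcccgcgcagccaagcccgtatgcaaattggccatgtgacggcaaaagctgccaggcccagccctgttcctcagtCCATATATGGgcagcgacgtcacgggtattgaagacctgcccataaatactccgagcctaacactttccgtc
Zfp36, chr7:28379229-28379478, minus strand, CArG box from -58 to -49: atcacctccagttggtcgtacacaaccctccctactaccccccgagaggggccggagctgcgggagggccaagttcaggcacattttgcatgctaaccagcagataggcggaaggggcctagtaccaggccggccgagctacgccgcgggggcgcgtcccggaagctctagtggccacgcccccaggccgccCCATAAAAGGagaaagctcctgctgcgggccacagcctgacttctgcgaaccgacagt
Dusp1, chr17:26508473-26508722, minus strand, TGACGTCA from -143 to -136: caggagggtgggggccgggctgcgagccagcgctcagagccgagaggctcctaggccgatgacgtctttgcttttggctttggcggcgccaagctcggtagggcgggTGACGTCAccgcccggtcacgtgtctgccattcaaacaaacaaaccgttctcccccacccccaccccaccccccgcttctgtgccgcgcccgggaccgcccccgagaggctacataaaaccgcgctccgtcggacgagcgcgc
Fos, chr12:85473640-85473889, plus strand, TATAAA from -33 to -28: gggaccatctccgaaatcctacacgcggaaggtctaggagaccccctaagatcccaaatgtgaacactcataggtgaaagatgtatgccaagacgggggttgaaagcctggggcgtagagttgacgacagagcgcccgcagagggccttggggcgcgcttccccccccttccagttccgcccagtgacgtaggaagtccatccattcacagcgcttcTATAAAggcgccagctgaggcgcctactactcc

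Among 27025 promoters of the table, 1.39% held a CArG box in the same window, 1.61% TGACGTCA, 13% TATAAA, 4.42% TGACTCA, 2.96% CCGGAAGT and 0.533% GCGTGGGCG. The last 3 were in none of the 8 windows of the members, which says only that those letters are absent there.

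Transcription block was used to ask how quickly messages are lost. In EPS, all 8 tested members fell within the first hour, with a median change of -1.51 against 0.0033 over all 14127 genes tested. The count filter took both states together. Fos, with 10 and 6 counts in EPS at 0 h, passed it through its counts in PrEdiff, so its EPS values rest on few counts. Of all genes, 65.1% were called in either direction over that hour. From 1 to 2 h, 7 of the 8 fell again (41.8% of all genes called), and from 2 to 3 h 2 fell and 1 rose (66.1% called). Values are relative to the average message, since the libraries are scaled to their own counts and the labels name no added standard.

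Among the AP-1 genes, Jun stood at 4.46 and 5.72 CPM at 0 h, 1.88 and 1.92 at 1 h, 0.499 and 0.874 at 2 h, and 0.726 and 0.762 at 3 h. The libraries of the first 3 hours did not overlap, and Jun fell by 1.43 ± 0.19 in the first hour (adjusted p = 6.19e-13) and by 1.45 ± 0.33 in the next. Junb went from 7.19 and 7.92 CPM at 0 h to 2.81 and 3.78 at 1 h and 1.37 and 1.43 at 2 h. It fell by 1.19 ± 0.15 and then by 1.22 ± 0.24, and from 2 to 3 h it was at -0.17 ± 0.30 (adjusted p = 0.649), or 0.49 when scaled to ribosomal protein genes. Fos was nearly silent in EPS, with 10 and 6 counts at 0 h, 2 and 1 at 1 h, and 0 at 2 and 3 h. The ratio at 1 h was 21.8% of the level at 0 h, with an exact 95% counting interval of 4.07 to 76.1%, and the call of the first hour (adjusted p = 0.0111) was lost without EPS 0 h replicate 1 (-1.68, adjusted p = 0.124) or EPS 1 h replicate 2 (-1.75, adjusted p = 0.0941). At a floor of 3 counts per library, Fos was at least 1.99-fold lower at 2 h and at least 2.42-fold lower at 3 h. Fosb had 8 counts in both 0 h libraries together, and neither Fosb nor Egr2, with 3, was tested.

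Egr1, a zinc finger factor, went from 4.55 and 4.72 CPM at 0 h to 1.33 and 1.54 at 1 h and 0.499 and 0.873 at 2 h. The libraries of the 3 hours did not overlap. The change was -1.69 ± 0.21 in the first hour (adjusted p = 3.06e-14) and -1.05 ± 0.35 in the next (adjusted p = 0.00975), the latter resting on 22 counts at 2 h and lost without EPS 2 h replicate 1 (-0.71, adjusted p = 0.194) or EPS 1 h replicate 2 (-0.94, adjusted p = 0.0744). Dusp1, the MAP kinase phosphatase, kept less of its message after 1 h than the other tested members, Fos aside. It stood at 38.8 and 40.5 CPM at 0 h, 10.4 and 10.8 at 1 h, 2.12 and 2.99 at 2 h, and 1.73 and 1.82 at 3 h. Thus 26.8% of the 0 h level was left after 1 h, 6.45% after 2 h and 4.46% after 3 h, and the change was -1.91 ± 0.08 in the first hour and -2.04 ± 0.15 in the next. From 2 to 3 h Dusp1 fell by 0.54 (adjusted p = 0.0357), or stood at 0.12 with ribosomal scaling, and leaving out EPS 2 h replicate 2 or either EPS 3 h library ended that call (-0.27, -0.57 and -0.50), as library totals did (-0.48).

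Zfp36, whose product binds AU-rich messages, including its own, stood at 5.86 and 6.64 CPM at 0 h, 2.02 and 2.15 at 1 h, and 1.12 and 1.31 at 2 h. It fell by 1.58 ± 0.17 and then by 0.77 ± 0.28, and the call of the later hour (adjusted p = 0.0172) was lost without EPS 1 h replicate 2 (-0.72) or EPS 2 h replicate 2 (-0.66). Klf6 fell from 23.4 and 24.0 CPM to 10.5 and 11.3 after 1 h and 4.74 and 4.86 after 2 h. At 3 h it stood at 5.86 and 7.77 CPM, above both 2 h libraries (0.50 ± 0.15, adjusted p = 0.00141), a call that was lost without EPS 3 h replicate 2 (0.28, adjusted p = 0.180). Ier2 kept more of its level after 1 h than the other tested members did in EPS. It stood at 102 and 108 CPM at 0 h, 65.5 and 67.1 at 1 h, 33.7 and 33.9 at 2 h, and 17.5 and 17.6 at 3 h. Like Dusp1 it fell in each of the 3 hours, by 0.67 ± 0.04, 0.97 ± 0.05 and 0.95 ± 0.07, so that 63.2%, 32.2% and 16.7% were left.

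In PrEdiff, of the 8 tested members, 7 fell in the first hour (52.9% of all genes called), 6 from 1 to 2 h (45.5% called) and 3 from 2 to 3 h (39.4% called), and none rose. The median change of the members was -0.98 in the first hour and -0.73 in the next, against 0.05 and 0.03 over all genes.

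Egr1 was the exception in the first hour. It stood at 1.86 and 2.08 CPM at 0 h, 1.93 and 1.97 at 1 h, 1.50 and 1.68 at 2 h, and 1.41 and 1.58 at 3 h, on 75, 76, 52 and 48 counts in both libraries together. The libraries at 0 and 1 h overlapped, and 99.0% of the 0 h level was left after 1 h, 80.5% after 2 h and 75.8% after 3 h. The change of the first hour was -0.02 ± 0.24 (adjusted p = 0.962), or 0.07 without PrEdiff 0 h replicate 2, and none of the 3 hours was called. Scaled to ribosomal protein genes, which rose on the TMM scale, Egr1 fell by 0.61 in the first hour (adjusted p = 0.0152) and by 0.79 in the next.

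Fos had 70 and 73 counts at 0 h in PrEdiff, enough to follow its loss. It stood at 3.72 and 3.80 CPM at 0 h, 1.99 and 2.12 at 1 h, 0.715 and 0.809 at 2 h, and 0.873 and 0.935 at 3 h. The libraries of the first 3 hours did not overlap, and 54.6% and 20.3% of the 0 h level were left after 1 and 2 h (-0.87 ± 0.21 and -1.42 ± 0.32). Jun went from 11.6 and 11.7 CPM to 5.48 and 5.51 after 1 h, 4.10 and 4.68 after 2 h, and 3.63 and 3.86 after 3 h. Most of the loss of Jun came in the first hour (-1.08 ± 0.12), and the hour from 1 to 2 h was not called (-0.32 ± 0.16, adjusted p = 0.0859). Junb fell in each hour, from 7.87 and 9.16 CPM at 0 h to 0.806 and 1.46 at 3 h, with 13.3% left. Of these hours the last was lost without PrEdiff 2 h replicate 1 (-0.53) or PrEdiff 3 h replicate 2 (-0.49), and the hour from 1 to 2 h without PrEdiff 2 h replicate 2 (-0.50).

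Dusp1 and Zfp36 kept less in the first hour than the other 6 tested members did in PrEdiff, at 36.4% and 36.0%. Dusp1 went from 42.4 and 42.6 CPM to 15.3 and 15.7 (-1.46 ± 0.07) and reached 5.08 and 5.71 at 3 h. Zfp36 went from 9.99 and 11.6 CPM to 3.71 and 4.08 (-1.47 ± 0.13), 1.91 and 2.47 at 2 h, and 2.89 and 2.98 at 3 h. The 3 h libraries of Zfp36 lay above the 2 h libraries, a difference that was not called (0.43 ± 0.23, adjusted p = 0.126). Ier2 fell in each hour, from 27.7 and 28.3 CPM at 0 h to 15.6 in both libraries at 1 h, 10.6 and 12.8 at 2 h, and 8.53 and 8.80 at 3 h. Klf6, the most abundant member in PrEdiff, went from 129 and 132 CPM to 76.0 and 78.5 at 1 h and 47.7 and 48.6 at 2 h, and 44.7 and 50.7 at 3 h (-0.01 ± 0.05, adjusted p = 0.883, or 0.0023 with RLE size factors). The last hour of Ier2 was lost without PrEdiff 2 h replicate 2 (-0.30, adjusted p = 0.115), and that of Dusp1 without PrEdiff 2 h replicate 1 (-0.27) or PrEdiff 3 h replicate 1 (-0.31).

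Set beside the AU-rich runs, the share left after 1 h did not put the members in the same order in both states. Ier2, with no ATTTA, kept 63.2% in EPS and 55.8% in PrEdiff, and Klf6, with 7 copies, 46.1% and 59.4%. Dusp1 and Zfp36, with 3 copies of TATTTAT each, kept 26.8% and 33.4% in EPS, where Fos, with 2, kept 21.6% and Egr1, with none, 31.0%. The EPS value of Fos rests on 3 counts at 1 h, with a counting interval of 4.07 to 76.1%, so its place in this order is undetermined. In PrEdiff Fos kept 54.6% and Egr1 99.0%. Jun, with 1 copy of TATTTAT, kept 37.2% in EPS and 47.2% in PrEdiff, and Junb, with none, 43.6% and 41.0%.

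**Figure D1:**
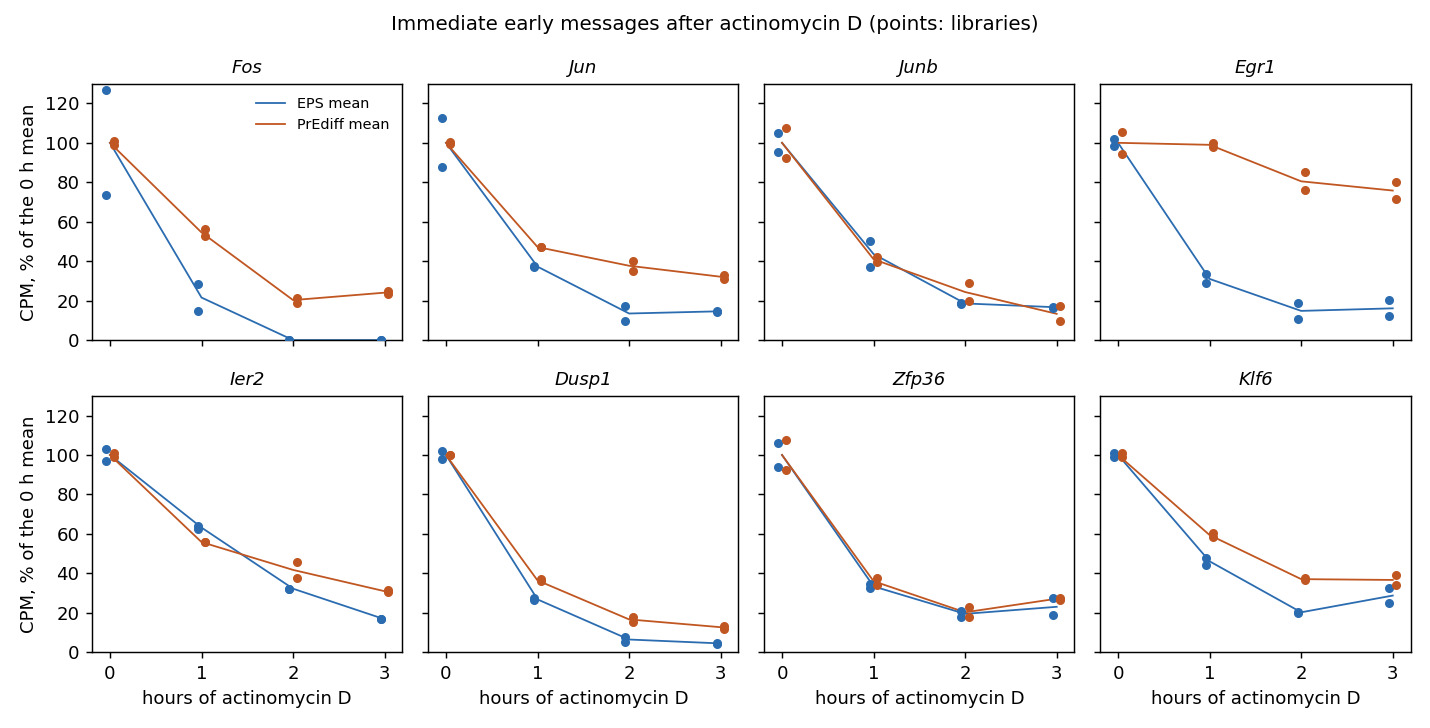
CPM of the 8 tested members in each actinomycin D library, as a percentage of the mean at 0 h of the same state (points: 2 libraries per hour; lines: means; EPS in blue, PrEdiff in orange). Egr1 shows the widest gap, with 31.0% left after 1 h in EPS and 99.0% in PrEdiff, and Zfp36 one of the narrowest, with 33.4% and 36.0%.

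The 2 states were compared by testing the difference of their hourly changes, PrEdiff minus EPS, in 1 model of all 16 libraries. In the first hour 3 of the 8 members differed, a share near the 34.0% called over all genes. All 3 fell less in PrEdiff: Egr1 (1.67 ± 0.33, adjusted p = 4.19e-06), Dusp1 (0.45 ± 0.11, adjusted p = 0.000342) and Klf6 (0.37 ± 0.09, adjusted p = 0.000562). Fos (1.24 ± 0.82), Jun (0.35 ± 0.23) and Zfp36 (0.11 ± 0.23) did not pass. Neither did Junb (-0.09 ± 0.22) and Ier2 (-0.17 ± 0.08), which became 0.26 and 0.18 with ribosomal scaling.

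From 1 to 2 h, 4 of the 8 differed, where 6.59% of all genes were called: Dusp1 (0.91 ± 0.20, adjusted p = 0.000676), Ier2 (0.55 ± 0.11, adjusted p = 9.81e-05), Jun (1.13 ± 0.37, adjusted p = 0.0409) and Klf6 (0.50 ± 0.14, adjusted p = 0.0163). All 4 again fell less in PrEdiff. The calls of Jun and Klf6 were lost with library totals, with RLE size factors and with ribosomal scaling, at 1.00 to 1.08 for Jun and 0.37 to 0.45 for Klf6. Jun was also lost without any 1 of 6 libraries (0.79 to 1.15), Klf6 without EPS 1 h replicate 1 or either EPS 2 h library (0.44 to 0.51), Dusp1 without EPS 2 h replicate 1 (0.68, adjusted p = 0.0781), and Ier2 without PrEdiff 2 h replicate 2 (0.41, adjusted p = 0.0834). From 2 to 3 h, where 49.2% of all genes were called, Ier2 differed by 0.51 ± 0.14, or -0.16 with ribosomal scaling. Klf6 differed by -0.51 ± 0.16, a value that was -0.29 and not called without EPS 3 h replicate 2.

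Other primary response genes, 42 listed genes of the same kind, lost RNA too. In EPS 33 of 39 tested fell and 1 rose in the first hour (median -0.86), where 65.1% of all genes were called in either direction, among them Tiparp, an ADP-ribosyltransferase gene (-1.77 ± 0.05), Dusp6, an ERK phosphatase gene (-1.62 ± 0.06), and the kinase gene Sgk1 (-0.95 ± 0.03). In PrEdiff 32 of 39 fell and none rose (median -0.60), where 52.9% of all genes were called, with Tiparp at -1.21 ± 0.05 and Dusp6 at -1.69 ± 0.07. The change of that hour was higher in PrEdiff than in EPS for 12 of the 39 and lower for 3, a share near the 34.0% called over all genes. Among 17 genes for factors that act on AU-rich messages, 13 fell and 3 rose in EPS in the first hour, with Cnot1, the scaffold gene of the deadenylase complex, at -0.50 ± 0.02, its catalytic partner Cnot6 at -0.81 ± 0.04 and the Zfp36 relative Zfp36l2 at -1.16 ± 0.06, and 11 fell and 2 rose in PrEdiff.

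How the members differ between endoderm and epiblast was read in 3 pairs of groups, each within its own table. Jun and Klf6 rose and Ier2 fell in the endoderm group of all 3 pairs, while Fos was higher in the endoderm group of 2 pairs and lower in that of the embryoids. In these bulk samples fewer cells of a type and less RNA per cell cannot be told apart.

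At 0 h of actinomycin D, 6 of 8 tested members differed between PrEdiff and EPS, 4 higher and 2 lower, in a comparison where 80.5% of all genes were called. Fos stood at 3.72 and 3.80 CPM in PrEdiff and 0.275 and 0.474 in EPS (3.32 ± 0.30, adjusted p = 8.73e-24). It had 10 and 6 counts in EPS and passed the count filter through its counts in PrEdiff, where it was high. The size of its change and its place among the tested members thus rest on few EPS counts. Klf6 stood at 129 and 132 CPM against 23.4 and 24.0 (2.46 ± 0.05). Jun, at 11.6 and 11.7 CPM against 4.46 and 5.72 (1.20 ± 0.12), and Zfp36, at 9.99 and 11.6 against 5.86 and 6.64 (0.80 ± 0.11), rose as well. None of these 4 pairs of groups overlapped. Ier2 fell, from 102 and 108 CPM in EPS to 27.7 and 28.3 in PrEdiff (-1.90 ± 0.05), and Egr1 fell from 4.55 and 4.72 to 1.86 and 2.08 (-1.22 ± 0.19). Dusp1 (0.11 ± 0.05, adjusted p = 0.0628) and Junb (0.18 ± 0.12, adjusted p = 0.146) did not pass, and both rose when scaled by library totals (0.29 and 0.36) or to ribosomal protein genes (0.22 and 0.29) and in a fit of the 0 h libraries alone (0.17 and 0.24). Fosb, with 8 counts in EPS and 4 in PrEdiff, and Egr2, with 3 and 5, were not tested.

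In the CD140 fractions, 7 of 9 tested members differed, 5 higher and 2 lower in PrE-E, where 57.7% of all genes were called. The AP-1 genes rose together. Jun stood at 146 CPM in both PrE-E libraries and 17.7 and 17.9 in EPI-E (3.05 ± 0.13, adjusted p = 5.13e-10), and Junb at 24.4 and 30.3 against 4.12 and 5.73 (2.48 ± 0.30). Fosb stood at 15.2 and 32.0 CPM against 1.52 and 1.86 (3.80 ± 0.43), and Fos at 7.15 and 12.3 against 1.53 and 2.29 (2.37 ± 0.54, adjusted p = 0.00218). The PrE-E libraries themselves differed widely for Fosb and Fos, yet lay above both EPI-E libraries. Klf6 rose from 18.6 and 22.6 CPM to 175 and 193 (3.17 ± 0.13).

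Ier2 and Dusp1 fell in the same fractions. Ier2 went from 105 and 107 CPM in EPI-E to 26.4 and 32.6 in PrE-E (-1.84 ± 0.14), and Dusp1 from 15.4 and 18.8 to 1.82 and 6.66 (-2.01 ± 0.50, adjusted p = 0.00405). Egr1 (-0.54 ± 0.24, adjusted p = 0.0686), which fell with library totals (-0.63, adjusted p = 0.0389), and Zfp36 (-0.40 ± 0.52, adjusted p = 0.535) did not pass. Egr2, with 5 counts in EPI-E and 17 in PrE-E, was not tested. Single heat shock genes went both ways, with Hsp90aa1 (-1.54 ± 0.03) and Hspa8 (-0.61 ± 0.04) lower and Bag3 (1.72 ± 0.17) higher in PrE-E. Together the heat shock genes made up 1.61 to 1.62% of counts in EPI-E and 0.763 to 0.767% in PrE-E. Feeder fibroblast markers made up 0.0198 to 0.0213% and 0.0400 to 0.0420%, with 6 of 12 tested rising in PrE-E and none of the 13 at 0. The part of these differences in the results was not tested.

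In the embryoids, with 6 libraries a part, 7 of 8 tested members differed, where 72.5% of all genes were called. Jun had a lowest, median and highest value of 18.1, 24.7 and 29.7 CPM in VE and 1.06, 3.76 and 6.79 in EPI (2.53 ± 0.33, adjusted p = 7.02e-07). Junb stood at 36.1, 39.1 and 48.7 CPM against 8.60, 15.6 and 24.6 (1.42 ± 0.20), and Klf6 at 155.0, 170.5 and 194 against 39.8, 49.7 and 67.5 (1.73 ± 0.11). The VE and EPI libraries of these 3 genes did not overlap.

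Dusp1 showed the largest difference among the members in the embryoids, with 4.63, 7.09 and 10.8 CPM in VE and 166, 188 and 211 in EPI, a 25.7-fold lower level in VE (-4.68 ± 0.15, adjusted p = 5.10e-17). Ier2 stood at 76.1, 85.0 and 103 CPM against 347, 369 and 383 (-2.09 ± 0.07), and Egr1 at 5.15, 6.90 and 10.3 against 22.4, 31.9 and 40.0 (-2.16 ± 0.22). Fos fell, with 0.958, 2.00 and 3.42 CPM in VE against 5.14, 6.96 and 13.0 in EPI (-1.90 ± 0.41, adjusted p = 0.000360). No VE library of these 4 genes reached the lowest EPI library. Zfp36 overlapped (0.10 ± 0.32, adjusted p = 0.785), Fosb had 14 counts in VE and 0 in EPI, and Egr2 was seen in 1 EPI library. The heat shock genes made up 1.16 to 1.18% of VE and 1.63 to 1.70% of EPI counts, and their part was not tested. Single heat shock genes went both ways, with Hsp90aa1 (-1.25 ± 0.03) and Hspd1 (-0.76 ± 0.04) lower and Hspb1 (1.46 ± 0.04) higher in VE. The 13 feeder fibroblast markers were near 0 in the embryoids, with a summed share of at most 0.00132% of counts.

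**Figure D2:**
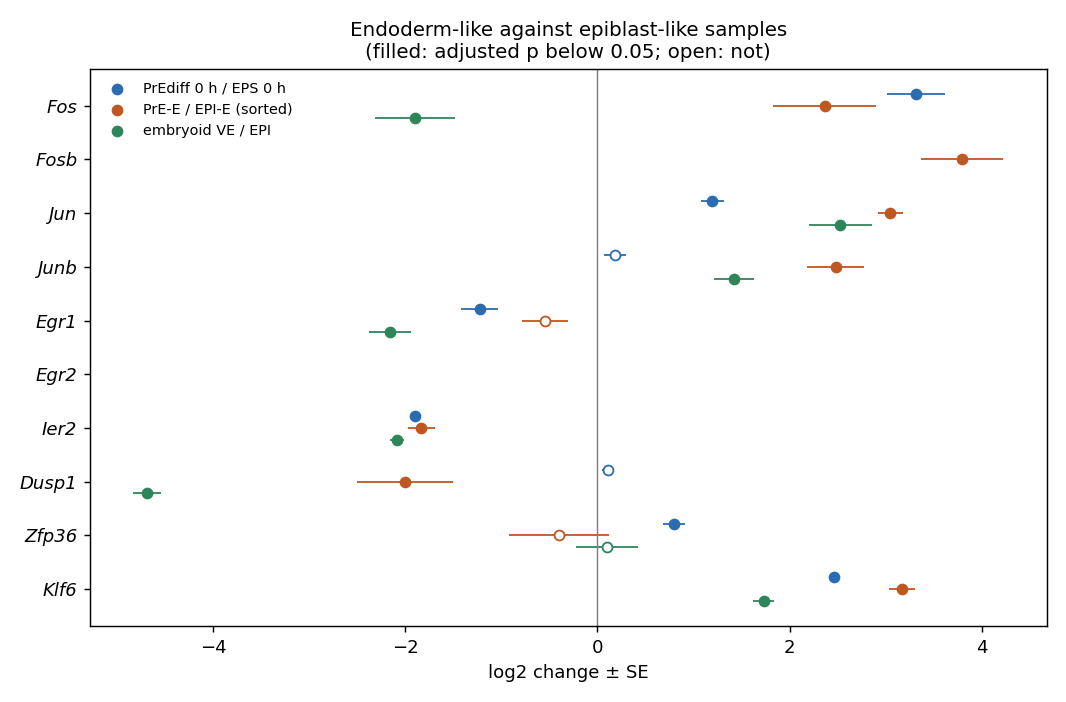
Log2 change ± SE of each member in the endoderm group against the epiblast or stem cell group of the same table, for PrEdiff over EPS at 0 h (n = 2 and 2 libraries), PrE-E over EPI-E (2 and 2) and embryoid VE over EPI (6 and 6). Jun and Klf6 lie to the right and Ier2 to the left in all 3 comparisons, and Fos lies at 3.32, 2.37 and -1.90.

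ERK feedback and target genes differed between the same groups. Of the 10 listed, 9 fell and 1 rose in PrEdiff at 0 h, 9 fell in PrE-E and 8 fell in embryoid VE, with medians of -1.09, -2.69 and -1.87 against -0.05, -0.03 and -0.05 over all genes. Etv5, an ETS factor induced by FGF, stood at -2.33 ± 0.03, -4.05 ± 0.15 and -2.36 ± 0.12, and Dusp6 at -5.12 ± 0.28 in PrE-E and -4.71 ± 0.10 in VE. Spred1, an inhibitor of the ERK route, stood at -3.24 ± 0.16 in PrE-E. Of the other primary response genes, 19 rose and 17 fell of 39 in PrEdiff, 11 rose and 10 fell of 37 in PrE-E, and 15 rose and 15 fell of 35 in VE. Over all genes 80.5%, 57.7% and 72.5% were called in these comparisons, so the share called in PrE-E was near that of all genes.

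PrE-induced control cells were sequenced in 4 tables, and their levels of the members were far apart. From the lowest to the highest of the 4 control groups (PrEdiff at 0 h, Virma WT, Mettl3 WT and siNC), Fosb spanned 671-fold, Egr1 265-fold, Egr2 128-fold, Fos 32.6-fold, Jun 24.5-fold and Junb 16.9-fold, computed with 0.1 CPM added. In PrEdiff at 0 h Fosb had 2 and 2 counts and Egr2 2 and 3, so the size of their folds depends on the added 0.1 CPM. The median was 2.82-fold over the 10138 genes with a mean of at least 10 CPM in any of these groups. Egr1 stood at 1.86 and 2.08 CPM in PrEdiff at 0 h, 132 and 134 in Virma WT, 172 and 185 in Mettl3 WT, and 507 and 591 in siNC. For these 6 genes PrEdiff at 0 h was the lowest group and siNC the highest. Ier2 spanned 9.82-fold, Dusp1 4.31-fold and Zfp36 3.84-fold. Klf6 spanned 1.47-fold, and 6.94% of genes spanned less, with 129 and 132 CPM in PrEdiff at 0 h and 185 and 198 in Mettl3 WT. These levels carry the TMM factors of each table, 1.26 for both PrEdiff 0 h libraries and 0.99 for both Mettl3 WT libraries. The order of Klf6 in siNC and PrEdiff at 0 h turned with factors over all libraries. Table and group coincide here, and the siNC cells were themselves treated. Differences between tables, between cultures and from the siNC treatment therefore cannot be told apart, and no test was made.

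**Figure D3:**
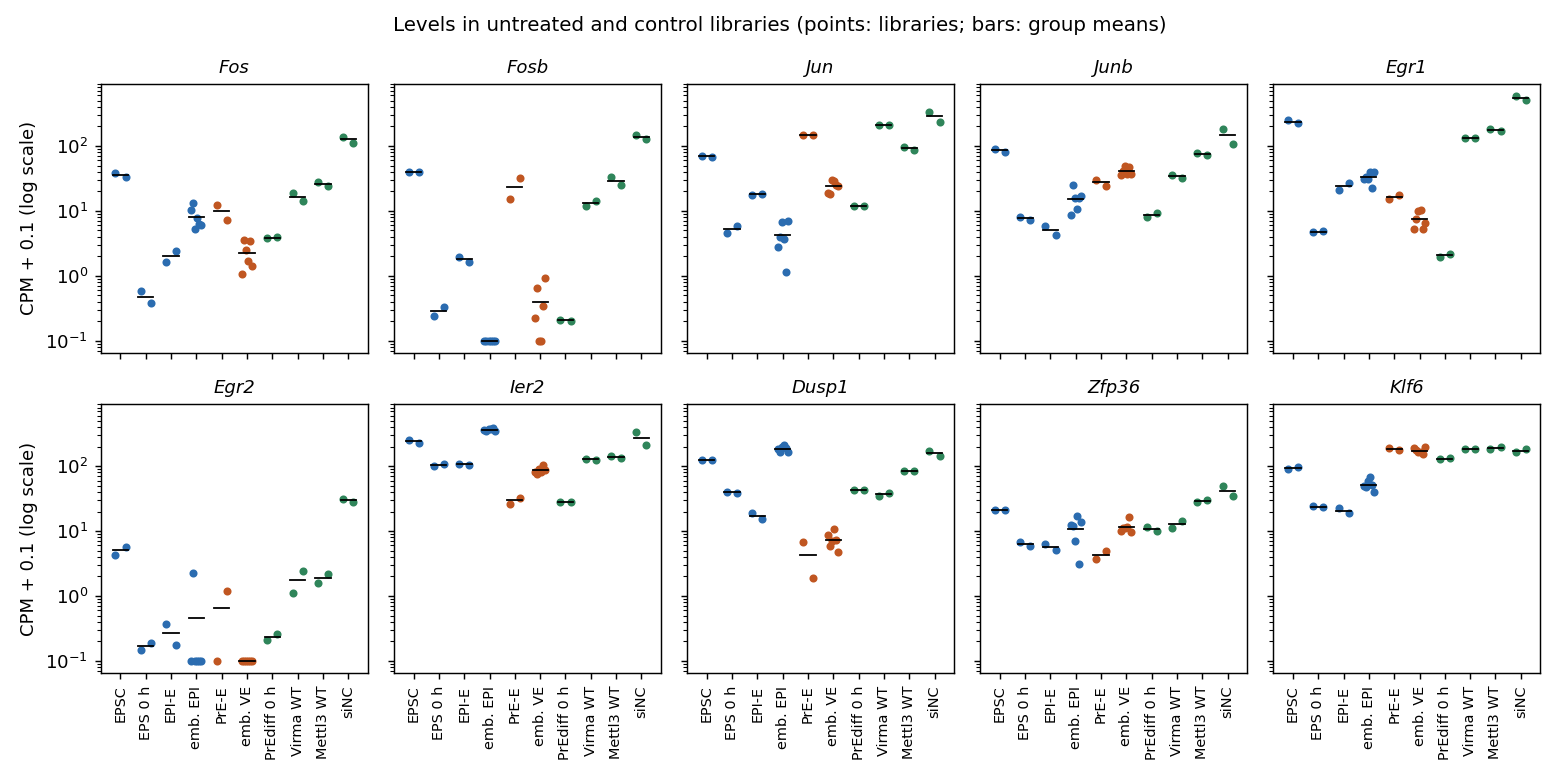
CPM + 0.1 of each member on a log scale in the untreated and control groups (points: libraries; bars: group means; blue for stem cell and epiblast groups, orange for sorted and embryoid endoderm, green for the 4 PrE-induced control groups). The green groups spread over more than a decade for Fos, Fosb, Jun, Junb, Egr1 and Egr2, and within 129 to 198 CPM for Klf6.

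Over all 19 groups, siNC held the highest mean of Fos, Fosb, Jun, Junb, Egr1, Egr2 and Zfp36. Of these 7 genes only Zfp36 overlapped the group next below, the libraries labelled Mettl3 cKO. Ier2 and Dusp1 were highest in embryoid EPI, at means of 366 and 187 CPM, with Dusp1 overlapping siNC. Klf6 was highest in Mettl3 WT at 192 ± 9.52 CPM (SD), and the 6 groups from there to Mettl3 cKO at 169 ± 6.25 overlapped each with the next. The lowest means of Jun, Egr1, Zfp36 and Klf6 were those of EPS at 2 h (0.686, 0.686, 1.22 and 4.80 CPM), and that of Dusp1 was EPS at 3 h (1.77). For Jun, Egr1 and Zfp36 the libraries of EPS at 2 h overlapped those at 3 h. Ier2 was lowest in PrEdiff at 3 h (8.66) and so was Junb (1.13), which overlapped EPS at 3 h. Untreated EPSC stood far above EPS at 0 h, with Egr1 at 226 and 248 CPM and Fos at 32.6 and 38.6, in another table.

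The 3 perturbations were each compared with the control of their own table. Virma, which holds the m6A writer complex together, stood at 107 and 109.7 CPM in Virma WT and 54.4 and 67.5 in Virma cKO (-0.82 ± 0.12, adjusted p = 1.12e-06). Mettl3, the catalytic subunit, stood at 35.2 and 37.6 CPM in the libraries labelled Mettl3 WT and 34.9 and 36.9 in those labelled Mettl3 cKO (-0.02 ± 0.11, adjusted p = 0.978). Igf2bp3, a protein that binds m6A-marked mRNA, stood at 97.9 and 114 CPM in siNC and 110.3 and 116 in the libraries labelled siIgf2bp3 (0.11 ± 0.11, adjusted p = 0.577). The directions given for the Mettl3 and siIgf2bp3 libraries are therefore those of their labels.

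In Virma cKO 7 of the 10 members changed, 5 higher and 2 lower, where 33.2% of all genes were called. Fos rose from 14.0 and 18.6 CPM to 29.7 and 29.9 (0.88 ± 0.21, adjusted p = 0.00146), and Fosb from 11.7 and 14.3 to 24.8 and 28.0 (1.03 ± 0.23, adjusted p = 0.000630). Neither pair of groups overlapped. Junb went from 32.4 and 35.9 CPM to 44.4 and 47.2 (0.43 ± 0.16, adjusted p = 0.0381), Dusp1 from 34.4 and 39.1 to 46.5 and 52.3 (0.43 ± 0.16, adjusted p = 0.0334), and Zfp36 from 11.1 and 14.3 to 19.5 and 21.7 (0.70 ± 0.25, adjusted p = 0.0286). These last 3 lost the call with DESeq2 and without WT replicate 1 (0.50, 0.34 and 0.53) or cKO replicate 1 (0.47, 0.34 and 0.62). Junb was lost without either remaining library as well (0.36 and 0.38), and Zfp36 without cKO replicate 2 (0.77).

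Ier2 and Klf6 fell in Virma cKO. Ier2 went from 125 and 129.6 CPM to 60.2 and 62.6 (-1.05 ± 0.11, adjusted p = 1.62e-09), and Klf6 from 182 and 184 to 101 and 104 (-0.82 ± 0.09, adjusted p = 6.28e-09). Jun stood at 208 and 211 CPM in WT and 203 and 212 in cKO (-0.01 ± 0.08, adjusted p = 0.958), or 0.17 with library totals, and it rose by 0.40 with ribosomal scaling (adjusted p = 9.47e-05). Egr1 (0.22 ± 0.09, adjusted p = 0.0618) and Egr2, at 1.01 and 2.35 CPM against 2.94 and 6.01 (1.40 ± 0.67, adjusted p = 0.107), did not pass. Egr1 rose with library totals (0.39) and ribosomal scaling (0.63), and Egr2 without WT replicate 2 (2.15) and with ribosomal scaling (1.81).

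The make-up of the Virma libraries moved with the label. The 8 PrE markers all fell, from 0.468 to 0.484% of counts in WT to 0.0678 to 0.0679% in cKO, and 12 of 13 feeder fibroblast markers rose, from 0.103 to 0.104% to 0.279 to 0.286%, with none of the 13 at 0. Igf2bp3 fell too (-1.26 ± 0.13). The part of these shifts in the members' changes was not tested. Of the other primary response genes 13 rose and 9 fell of 40 where 33.2% of all genes were called, with Klf4 at -1.19 ± 0.09 and Sgk1 at -1.89 ± 0.17, and of the ERK targets 3 rose and 3 fell, with Spry4, an inhibitor of receptor signalling, at -1.29 ± 0.14.

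In the libraries labelled Mettl3 cKO 1 of 10 members was called, where 3.95% of all genes were. Zfp36 rose from 28.4 and 29.7 CPM to 36.5 and 40.4 (0.41 ± 0.11, adjusted p = 0.0372), without overlap. Its call was lost with DESeq2 (0.40, adjusted p = 0.258), with ribosomal scaling (0.36), with the replicate number as a block (0.41, adjusted p = 0.0619) and without WT replicate 1 (0.37), WT replicate 2 (0.44) or cKO replicate 2 (0.32). The other 9 members lay between -0.21 for Fos and 0.66 for Egr2. Feeder markers made up 0.249 to 0.262% of WT and 0.360 to 0.375% of cKO counts, 12 of 13 of them rising, and PrE markers 0.652 to 0.675% and 0.490 to 0.511%, 7 of 8 of them falling. The part of these shifts was not tested.

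In the libraries labelled siIgf2bp3 6 of 10 members fell and none rose, where 7.32% of all genes were called. Egr2 fell most, from 27.6 and 31.5 CPM to 5.62 and 6.58 (-2.27 ± 0.19, adjusted p = 0.000198), a change of rank 10 from the most negative of the 12918 genes tested. Egr1 fell from 507 and 591 CPM to 319 and 324 (-0.76 ± 0.11), Fos from 113 and 139 to 61.9 and 62.4 (-1.01 ± 0.13), Fosb from 126 and 149 to 64.2 and 66.6 (-1.07 ± 0.12), and Jun from 237 and 338 to 141 and 145 (-0.999 ± 0.15). No siIgf2bp3 library reached an siNC library for any of these 5 genes. Klf6 fell from 163 and 183 CPM to 118 and 122 (-0.52 ± 0.10, adjusted p = 0.0154), a call that was lost without siIgf2bp3 replicate 1 (-0.56) or replicate 2 (-0.52).

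Junb (-0.65 ± 0.20, adjusted p = 0.0751), Ier2 (-0.33 ± 0.18, adjusted p = 0.266), Dusp1 (-0.17 ± 0.11, adjusted p = 0.365) and Zfp36 (-0.13 ± 0.17, adjusted p = 0.679) did not pass. For Junb and Ier2 siNC replicate 1 stood high, at 183 against 109 CPM and 339 against 213. Without siNC replicate 2 all 10 members fell, in a fit that called 4936 genes in place of 945, so the share over all genes given above is not its background. Without siNC replicate 1 Ier2 and Zfp36 stood at 0.036 and 0.14, and 7 members and 2424 genes were called. Junb also fell without siNC replicate 1 (-0.23) or siIgf2bp3 replicate 2 (-0.78), with ribosomal scaling (-0.62), with no filter on low counts (-0.65) and with the replicate number as a block (-0.60, adjusted p = 0.000735). Of the other primary response genes 6 fell and 1 rose of 41, among them Ccn1, a matrix protein gene (-0.76 ± 0.10), Btg2, an antiproliferative gene (-0.64 ± 0.12), and Egr3, a relative of Egr2 (-2.17 ± 0.47). Of the 10 ERK targets 4 rose and none fell, with Spry4 at 0.76 ± 0.10, Etv1, an ETS factor like Etv5, at 0.99 ± 0.17 and Etv5 at 0.54 ± 0.09. PrE markers made up 0.906 to 0.956% of siNC and 0.358 to 0.363% of siIgf2bp3 counts, all 8 falling, and heat shock genes 0.587 to 0.700% and 0.813 to 0.834%. The part of these shifts was not tested.

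**Figure D4:**
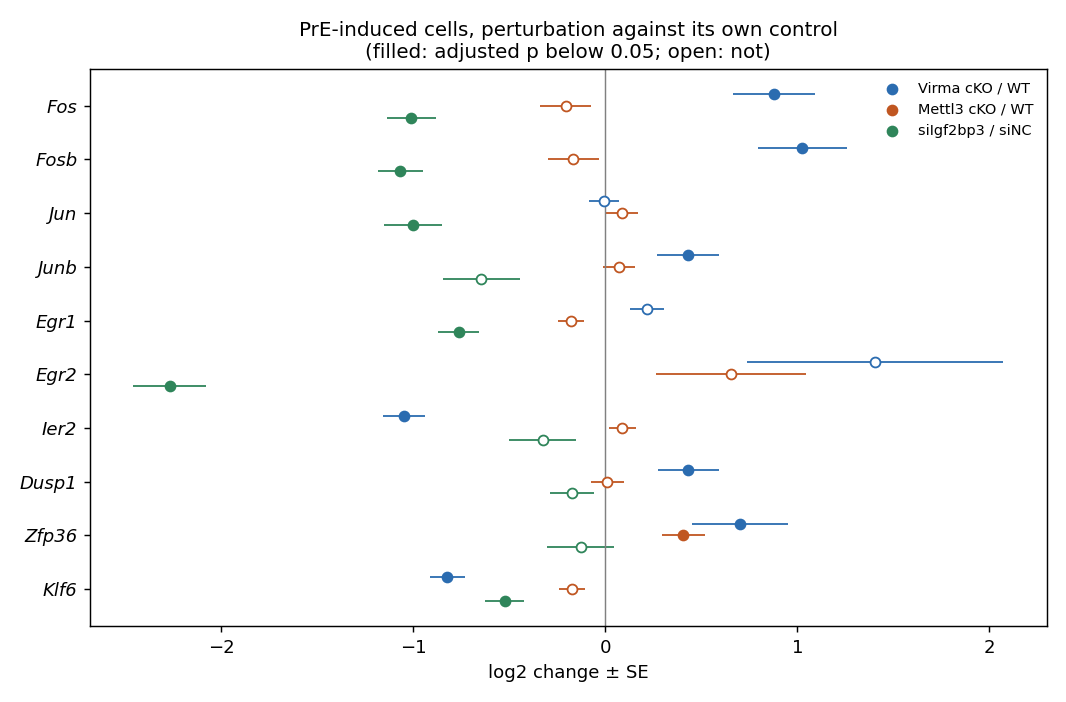
Log2 change ± SE of each member in PrE-induced cells against the control of the same table (2 and 2 libraries each). Fos and Fosb lie at 0.88 and 1.03 for the Virma label and at -1.01 and -1.07 for the siIgf2bp3 label, and Klf6 at -0.82 and -0.52.

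The responses were compared in a joint model of the 3 tables, each response taken against its own control. Between Virma and siIgf2bp3 all 10 members differed, 8 more positive with Virma and 2 more negative, where 30.6% of all genes were called. Egr2 differed by 3.54 ± 0.53, Fosb by 1.97 ± 0.22 and Fos by 1.775 ± 0.21. Ier2 was more negative with Virma (-0.84 ± 0.19, or -0.34 and not called with ribosomal scaling). So was Klf6 (-0.41 ± 0.12), which lost the call with library totals (-0.13) or without siIgf2bp3 replicate 1 (-0.40) and turned to 0.10 with ribosomal scaling. Dusp1 (0.49 ± 0.16) and Zfp36 (0.71 ± 0.25) each lost the call without any 1 of 5 libraries, at 0.34 to 0.51 and 0.43 to 0.80.

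Between Virma and Mettl3 4 of the 10 differed (21.7% of all genes called): Fos (0.98 ± 0.22), Fosb (1.08 ± 0.23), Ier2 (-1.24 ± 0.19) and Klf6 (-0.75 ± 0.12), the last not called with ribosomal scaling (-0.19). Between Mettl3 and siIgf2bp3 4 of the 10 differed, all more positive with Mettl3, where 1.11% of all genes were called: Fosb (0.89 ± 0.21), Jun (1.08 ± 0.17), Egr1 (0.57 ± 0.12) and Egr2 (2.91 ± 0.55). Of these, Jun kept its call under all alternatives, and the other 3 lost it with the replicate number as a block (0.90 for Fosb, 0.57 for Egr1, 2.90 for Egr2). They also lost it without any 1 of 6, 5 and 3 libraries, at 0.71 to 0.99, 0.52 to 0.59 and 2.65 to 2.80. These 3 comparisons share libraries with one another.

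Across the 19 groups the members varied together to different degrees, as a description over group means of log2(CPM + 1) from tables that differ in origin. Pearson's r was 0.95 between Fos and Egr1, 0.93 between Fos and Fosb, 0.94 between Junb and Zfp36 and 0.81 between Ier2 and Dusp1, but 0.33 between Ier2 and Klf6. Of 8940 other genes with a mean of at least 10 CPM, those closest to the mean profile of the members were Ier5, another immediate early gene (r = 0.96), the kinase gene Map3k20 (0.95), the forkhead factor gene Foxo3 (0.95), Tob1 (0.95), whose product links mRNAs to deadenylation, and Ccn1 (0.94).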

How the data were processed

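RNA was extracted with TRIzol and libraries were made with a SMARTer stranded kit and a VAHTS kit, per the labels' protocols, which do not assign the kits to libraries. STAR 2.7.11b, Subread, Trim Galore, FastQC 0.12.1 and DESeq2 were used on the mm39 build, per the submitters' processing notes. The strand setting and the annotation are not given in the sources used here, so a gene and an antisense partner cannot be told apart. The authors deposited raw counts per gene, the unit used here. Groups came from the sample titles. edgeR 4.0.16 in R 4.3.3 (TMM factors, filterByExpr with a minimum count of 10 and total of 15, robust quasi-likelihood test, Benjamini-Hochberg adjustment over all genes tested, threshold 0.05) was run within each table, all groups of a table sharing one spread, and was tested on simulated data. DESeq2 1.42.0, other scalings and filters, a replicate block and leaving out each library were alternatives. Counting intervals are exact and cover counting error only. The members and lists were chosen with earlier results of these data known. All 10 members are named in each comparison; of each list up to 3 genes are named, by the smallest adjusted p; the genes of like pattern are the 5 with the highest correlation. Same-numbered libraries of different groups did not deviate together (r from -0.23 to 0.04), so the numbers were not taken to pair them. The -0.23 was that of the Mettl3 libraries, whose crossed numbers thus deviated together to that degree. The main test of Mettl3 left out this crossed pairing, and its result is given further on.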

Additional observations from a re-analysis of the deposited data

Results flagged for a closer look

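Among 18 sets of 6 embryoid libraries tested for a library far from the others, 2 held one. Chance gives about 1 in 20 where values are normally distributed. That rate does not hold for Egr2, since a set with a single library above 0 is always flagged. Egr2 stood at 2.16 CPM in embryoid EPI replicate 2 and at 0 in the other 5 EPI libraries. Zfp36 stood at 16.6 CPM in embryoid VE replicate 5, above the other 5.

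Hourly changes that differed between PrEdiff and EPS by a test of the difference were those of Egr1 (1.67), Dusp1 (0.45) and Klf6 (0.37) in the first hour. From 1 to 2 h they were those of Jun (1.13), Ier2 (0.55), Dusp1 (0.91) and Klf6 (0.50), and from 2 to 3 h those of Ier2 (0.51) and Klf6 (-0.51). Over all genes 34.0%, 6.59% and 49.2% were called in these hours, in order. The share of members was near that of all genes in the first hour and below it in the last. From 1 to 2 h the calls of Jun and Klf6 were lost with other scalings, and from 2 to 3 h Ier2 turned with ribosomal scaling.

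Responses that differed between perturbations by such a test were, for Virma against Mettl3, those of Fos (0.98), Fosb (1.08), Ier2 (-1.24) and Klf6 (-0.75). For Virma against siIgf2bp3 they were those of Fos (1.775), Fosb (1.97), Jun (0.87), Junb (0.96), Egr1 (0.86), Egr2 (3.54), Ier2 (-0.84), Dusp1 (0.49), Zfp36 (0.71) and Klf6 (-0.41). For Mettl3 against siIgf2bp3 they were those of Fosb (0.89), Jun (1.08), Egr1 (0.57) and Egr2 (2.91). Over all genes 21.7%, 30.6% and 1.11% were called in these comparisons, in the order given. The settings under which single calls were lost are given with the joint model above.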

How the results depend on the processing

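Low counts limited Fosb and Egr2 in the actinomycin D table, where neither reached 10 counts over both 0 h libraries of a state, and Fos in EPS from 1 h on. The counts below are of members alone, without the share of all genes called in the same fit. That share moved as well in some of the fits, so the counts are not read as results about the members. The number of members called moved past 1.5 times its value in these cases, and the causes were not tested. From 0 h, the difference between states called 5 members when taken to 2 h in place of 1 h. From 1 to 2 h it called 2 with RLE size factors, library totals or ribosomal scaling and 1 with DESeq2, which gave no adjusted p for Jun and Dusp1, and 2 to 4 with 1 library left out. From 2 to 3 h it called 1 to 2 with 1 left out, EPS called 1 to 3, and PrEdiff 1 to 2 and 1 with DESeq2. Virma called 4 with DESeq2 and 4 to 7 with 1 left out. Mettl3 called 0 with ribosomal scaling or DESeq2 and 0 to 1 with 1 left out, and siIgf2bp3 5 to 10. Virma against Mettl3 called 7 with ribosomal scaling, and Mettl3 against siIgf2bp3 1 to 7 with 1 left out.

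With the replicate number as a replicate block, Mettl3 called 0 members and Mettl3 against siIgf2bp3 1, siIgf2bp3 called 1467 genes in place of 945, and Mettl3 against siIgf2bp3 40 in place of 158. The crossed pairing of the Mettl3 libraries, chosen after seeing the data, called 3 members and 1421 genes in place of 518.

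Directions turned as follows, all for values not called unless the report says otherwise. With ribosomal scaling, Junb (0.49) and Dusp1 (0.12) turned in EPS from 2 to 3 h, Junb (0.26) and Ier2 (0.18) in the state difference of the first hour, Ier2 (-0.16), Dusp1 (-0.52) and Zfp36 (-0.46) in that from 2 to 3 h, Jun in Virma (0.40, and 0.17 with library totals), Dusp1 in Mettl3 (-0.034), Jun in Virma against Mettl3 (0.36, and 0.066 with library totals) and Klf6 in Virma against siIgf2bp3 (0.10). The state difference taken from 0 to 2 h turned Junb (0.37) and Ier2 (0.38, called). RLE size factors turned Klf6 in PrEdiff from 2 to 3 h (0.0023), and TMM factors over all 46 libraries turned the level of Klf6 in siNC over PrEdiff at 0 h (-0.070).

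With 1 library left out, the range of these values took in 0. In EPS from 2 to 3 h it was -0.24 to 0.56 for Jun, -0.30 to 0.56 for Egr1 and -0.064 to 0.48 for Zfp36. In PrEdiff it was -0.093 to 0.069 for Egr1 in the first hour and -0.12 to 0.072 for Klf6 from 2 to 3 h. For the state differences it was -0.28 to 0.14 for Junb in the first hour and -0.26 to 0.11 for Zfp36 in the next, and, from 2 to 3 h, -0.80 to 0.0011 for Jun, -0.65 to 0.21 for Egr1, -0.12 to 0.37 for Dusp1 and -0.051 to 0.49 for Zfp36. It was -0.039 to 0.015 for Jun in Virma, -0.34 to 0.054 for Fosb and -0.11 to 0.12 for Dusp1 in Mettl3, -0.63 to 0.036 for Ier2 and -0.37 to 0.14 for Zfp36 in siIgf2bp3, and -0.092 to 0.27 for Zfp36 in the embryoids.

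Counts over all genes moved past 1.5 times with ribosomal scaling for EPS from 1 to 2 h (9604 in place of 5901), PrEdiff from 1 to 2 h (10575 in place of 6421), the state difference of the first hour (8037 in place of 4804), Mettl3 (268) and Mettl3 against siIgf2bp3 (92). They moved for the state difference from 1 to 2 h with library totals (571), DESeq2 (313) and without PrEdiff 2 h replicate 2 (599) in place of 931, for Mettl3 with DESeq2 (246), for siIgf2bp3 without a filter (1699), and for Mettl3 against siIgf2bp3 with DESeq2 (419) or without a filter (422). With 1 library left out, siIgf2bp3 called 242 to 4936 genes, Virma against Mettl3 as few as 1946 in place of 3087, and Mettl3 against siIgf2bp3 37 to 985. Ribosomal scaling moved the median of all genes to -0.95, -0.38 and 0.67 in the 3 hours of EPS, -0.55 and -0.46 in the first 2 of PrEdiff, 0.43 in Virma, 0.22 in PrE-E and 0.26 in VE, and library totals to -0.23 in the first hour of EPS and 0.20 in Virma.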
